A study of Mus musculus with 8 samples.

Results

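Cholesterol and fatty acids are made by enzymes whose genes are switched on by the sterol regulatory element binding proteins (SREBPs). A list of 36 symbols for such genes was matched to the symbols of the deposited expression table, and 34 genes were found among the 17847 genes of the table. The listed symbol Sc4mol is an older name of Msmo1, and Npc1l1 was not analysed here. The 34 genes were 18 sterol synthesis enzymes (7 of the mevalonate and isoprenoid steps and 11 of the steps from squalene to cholesterol), 5 genes of SREBP control, 2 genes of sterol transport and 9 fatty acid enzymes.

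The genes were read in RNA of muscle stem cells, which express Pax7, lie beside skeletal muscle fibres and repair them. There were 4 wild-type and 4 Cox10-/- libraries, all from adult C57Bl/6 mice on standard chow. In the Cox10-/- mice a floxed Cox10 allele was deleted by a tamoxifen-dependent Cre (ERT2) under a Pax7 driver, so that the deletion was aimed at Pax7-expressing cells. Per the labels, every sample came from animals injected intraperitoneally with tamoxifen, 1 dose of 200 mg/kg, 2 days before cells were purified. Whether the wild-type mice carried the Cre driver or a floxed allele is not in the labels. The sort kept CD34-positive cells without CD31, CD45 or Sca1 that excluded DAPI, a dye of dead cells, and the library kit was a stranded one for small amounts of total RNA. The labels do not say that each replicate came from its own animal, so the p-values measure the spread between these samples, which may be partly technical.

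A library held 1693564 to 4647127 reads counted in genes, as recovered from the steps of its low values. Levels are log2 CPM, the base 2 logarithm of a gene's reads scaled to the reads of the library, and a CPM of 1 or less stands at 0. Cox10 had a log2 CPM of 3.98, 3.42, 4.12 and 3.69 in wild-type and 3.51, 3.69, 3.49 and 2.05 in Cox10-/- replicates 1 to 4. These values overlapped, and Cox10 did not pass the test (log2 fold change -0.62 ± 0.34 SE, limma adjusted p = 0.246). Whether the reads fall in the deleted exon cannot be read from a table of genes. The stem cell gene Pax7 was clearly present, at 8.45 to 8.77 in wild-type and 7.15 to 7.52 in Cox10-/- libraries, and fell by 1.29 on the log2 scale (± 0.11 SE, limma adjusted p = 1.9e-05). In both genotypes replicates 1 and 2 resembled each other, as did replicates 3 and 4 (chi-square per degree of freedom of 2.65 to 3.06, against 4.77 to 7.72 for the other pairs). The labels do not say what these replicates share or whether the pairs match across genotypes. Results below are also given within each pair.

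In cells with ample sterol, SREBPs are held in the endoplasmic reticulum by SCAP, which senses cholesterol, and by the INSIG proteins, which sense oxysterols. When sterol falls, SCAP carries SREBP to the Golgi, where proteases free the part that enters the nucleus and activates its target genes. Srebf2 encodes SREBP2, which acts mainly on cholesterol genes, and Srebf1 encodes the SREBP1 forms, of which SREBP1c acts mainly on fatty acid genes. The mevalonate steps also yield farnesyl diphosphate, the prenyl donor that Cox10, the haem A farnesyltransferase of mitochondria, attaches to haem for cytochrome c oxidase.

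The promoters of 7 genes on which the results turn are printed first: 5 of genes that fell in the sterol branch and its regulator (Hmgcs1, Idi1, Mvd, Nsdhl and Srebf2) and both fatty acid enzymes that changed (Elovl6, which fell, and Elovl5, which rose). Each is 220 bases long, from 200 bases before to 20 bases after the annotated start, 5′ to 3′ on the strand of the gene, from RefSeq on GRCm38.p6. Capitals mark the core of the sterol regulatory element, TCACNCCAC, and the NF-Y box, CCAAT, each on either strand, so that a CCAAT on the other strand reads ATTGG.
Hmgcs1 (chr13:119690151-119690370, plus strand): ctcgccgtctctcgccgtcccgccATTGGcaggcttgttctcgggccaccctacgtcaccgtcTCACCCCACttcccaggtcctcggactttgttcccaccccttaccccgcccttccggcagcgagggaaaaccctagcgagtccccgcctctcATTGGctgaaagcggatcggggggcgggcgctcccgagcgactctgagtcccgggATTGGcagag
Idi1 (chr13:8885406-8885625, plus strand): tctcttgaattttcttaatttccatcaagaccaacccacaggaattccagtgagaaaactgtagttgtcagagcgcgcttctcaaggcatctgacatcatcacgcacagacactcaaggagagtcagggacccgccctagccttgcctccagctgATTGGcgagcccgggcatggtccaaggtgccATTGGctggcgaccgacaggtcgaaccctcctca
Mvd (chr8:122443403-122443622, minus strand): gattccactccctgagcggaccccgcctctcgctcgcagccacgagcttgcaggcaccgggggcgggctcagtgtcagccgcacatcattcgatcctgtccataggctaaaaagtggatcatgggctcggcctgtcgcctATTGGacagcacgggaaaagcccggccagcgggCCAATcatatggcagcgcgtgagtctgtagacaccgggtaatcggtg
Nsdhl (chrX:72918321-72918540, plus strand): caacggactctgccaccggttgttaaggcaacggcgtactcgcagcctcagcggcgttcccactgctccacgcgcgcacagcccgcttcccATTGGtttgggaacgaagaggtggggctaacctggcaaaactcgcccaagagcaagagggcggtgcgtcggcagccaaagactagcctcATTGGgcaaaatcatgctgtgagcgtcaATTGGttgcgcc
Srebf2 (chr15:82147069-82147288, plus strand): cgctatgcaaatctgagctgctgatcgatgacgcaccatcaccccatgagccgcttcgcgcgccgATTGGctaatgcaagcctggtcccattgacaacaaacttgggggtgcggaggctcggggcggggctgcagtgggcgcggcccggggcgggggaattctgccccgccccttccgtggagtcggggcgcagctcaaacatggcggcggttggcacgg
Elovl6 (chr3:129532186-129532405, plus strand): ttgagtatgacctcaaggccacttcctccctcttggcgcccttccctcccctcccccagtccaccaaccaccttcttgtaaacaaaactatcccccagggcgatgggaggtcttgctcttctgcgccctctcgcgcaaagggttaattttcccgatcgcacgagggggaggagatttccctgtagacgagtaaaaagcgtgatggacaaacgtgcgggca
Elovl5 (chr9:77917165-77917384, plus strand): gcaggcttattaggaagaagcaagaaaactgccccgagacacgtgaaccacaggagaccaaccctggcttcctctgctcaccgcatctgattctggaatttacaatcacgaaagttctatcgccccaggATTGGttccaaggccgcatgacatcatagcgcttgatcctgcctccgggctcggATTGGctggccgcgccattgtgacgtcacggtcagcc
Promoters of 300 bases, from 250 before to 50 after the start, were found in RefSeq for 26 of the 34 genes. They were not found for Fdps, Fdft1, Sqle, Stard4, Npc1, Scd1, Scd2 and Fads1. The NF-Y box CCAAT was present in 14 of 15 sterol enzyme genes (93.3%), 4 of 5 SREBP control genes (80%) and 3 of 6 fatty acid genes (50%), against 41.1% of all 27025 genes with a promoter. The Sp1 box GGGCGG was present in 14 of 15, in 5 of 5 and in 2 of 6 of the same groups, against 38.2% of all genes. The core TCACNCCAC was present in 1 of the 26 genes, Hmgcs1, where it begins 137 bases before the start, and in 1.44% of all genes. Only exact matches to this core were counted, so an element with other letters would be missed. The E-box CACGTG was present in 3 of 15, 2 of 5 and 1 of 6 genes of the groups, against 8.09% of all genes. All motifs were searched on both strands, a gene with several promoters counted once, and none of the 4 motifs lies within another. In the windows printed above, Hmgcs1 and Nsdhl each hold 3 NF-Y boxes, Idi1, Mvd and Elovl5 hold 2 each, Srebf2 holds 1 and Elovl6 holds none. For Hmgcs1 and Nsdhl the bases shortly after the start were not found in a GENCODE M21 transcript of the gene, so these starts are less certain.

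In Cox10-/- cells 8 of the 18 sterol enzymes fell, 10 did not pass the test and none rose (limma adjusted p under 0.05). Of the 9 fatty acid enzymes 1 fell (Elovl6) and 1 rose (Elovl5). Srebf2 itself fell and Srebf1 did not pass the test. Among all 34 genes 11 fell and 1 rose, against 8.51% of all 17801 tested genes that fell and 7.58% that rose, or 16.1% in either direction. The calls among the fatty acid enzymes are near those shares, and the difference between the sterol and the fatty acid enzymes was not tested. The median log2 fold change was -0.49 for the sterol enzymes and -0.21 for the fatty acid enzymes, against -0.06 for all genes. By voom, the other test that was run, 4 sterol enzymes fell and none rose, with Idi1, Cyp51, Hmgcs1 and Msmo1 past the threshold no longer (voom adjusted p of 0.0524, 0.0564, 0.0646 and 0.0681), and at an unadjusted p under 0.05 in limma 9 fell and none rose. In the same 2 groups of 4 libraries, 11 of the 34 genes had all Cox10-/- values below all wild-type values, against 11.8% of all genes, and 1 had all above, against 9.3%. In bulk RNA, fewer cells of a type and less RNA per cell cannot be told apart.

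**Figure D1:**
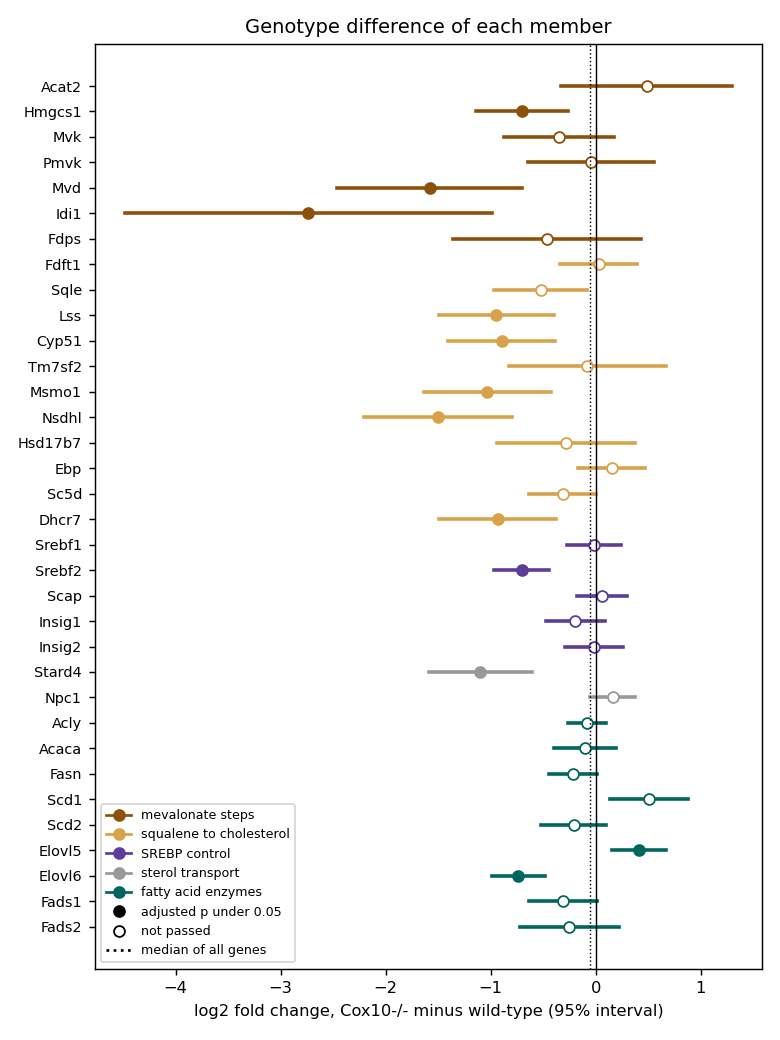
Log2 fold change of each of the 34 genes, Cox10-/- minus wild-type, with its 95% interval from limma (4 libraries per genotype). Filled points passed an adjusted p of 0.05, open points did not, and the dotted line is the median of all genes. Most sterol enzymes lie left of 0, Idi1 farthest at -2.74 with the widest interval, and the fatty acid enzymes lie near 0 except Elovl6, Elovl5 and Scd1.

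The mevalonate steps build the isoprenoid units from acetyl-CoA, and 3 of their 7 genes fell. Hmgcs1, the cytosolic HMG-CoA synthase that supplies the pathway, had a log2 CPM of 7.29, 7.21, 6.36 and 6.40 in wild-type replicates 1 to 4 and of 6.16, 6.30, 5.94 and 6.06 in Cox10-/- replicates 1 to 4. No value of one genotype reached the other, and wild-type replicates 1 and 2 stood well above replicates 3 and 4. Hmgcs1 fell by 0.70 on the log2 scale (± 0.20 SE, limma adjusted p = 0.0338), to 61.6% of wild-type. Mvd, which decarboxylates mevalonate diphosphate to isopentenyl diphosphate, had 2.87, 3.14, 3.11 and 3.16 in wild-type and 2.41, 1.78, 1.53 and 0.24 in Cox10-/- libraries. The wild-type values lay close together and above every Cox10-/- value, the lowest of which rests on 2 reads. Mvd fell by 1.58 (± 0.40 SE, limma adjusted p = 0.0200), to 33.5% of wild-type.

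Idi1, which turns isopentenyl diphosphate into its isomer dimethylallyl diphosphate, had a log2 CPM of 6.69, 6.16, 5.37 and 5.40 in wild-type and of 4.98, 5.05, 1.82 and 0.82 in Cox10-/- libraries. Cox10-/- replicates 3 and 4, with 11 and 3 reads, stood far below replicates 1 and 2, with 136 and 144, and no Cox10-/- value reached the wild-type range. The fall of Idi1 was 2.74 on the log2 scale, to 15.0% of wild-type, with an error to match the scatter (± 0.80 SE, 95% interval -4.48 to -0.99, limma adjusted p = 0.0364, and 0.0524 by voom). It was -1.41 within replicates 1 and 2, and -4.07 within replicates 3 and 4. This change of the genotype difference between the pairs was itself past the threshold (-2.66, limma adjusted p = 0.0424 for the interaction), which 0.0674% of all genes and 1 of the 34 genes reached. The interaction was tested after the data were seen.

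The other mevalonate genes did not pass the test. Acat2, the cytosolic thiolase that joins a pair of acetyl-CoA, had a log2 fold change of 0.49 ± 0.37 SE, and its groups overlapped. Mvk and Pmvk, the kinases that phosphorylate mevalonate, had -0.35 ± 0.24 and -0.04 ± 0.28. Fdps, the synthase of farnesyl diphosphate, had 2.34, 1.22, 1.11 and 2.16 in wild-type and 1.70, 1.69, 0.36 and 1.24 in Cox10-/- libraries. Its groups overlapped and its log2 fold change was -0.46 ± 0.41 SE (limma adjusted p = 0.485). The count of Fdps is uncertain, since 86.4% of the 50-base words of its longest coding transcript also occur in transcripts of other genes in GENCODE M21, and the same holds for 45.9% of Acat2, 30.5% of Idi1 and 13.6% of Hmgcs1. How the authors counted reads with several matches is not given in the sources used here.

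**Figure D2:**
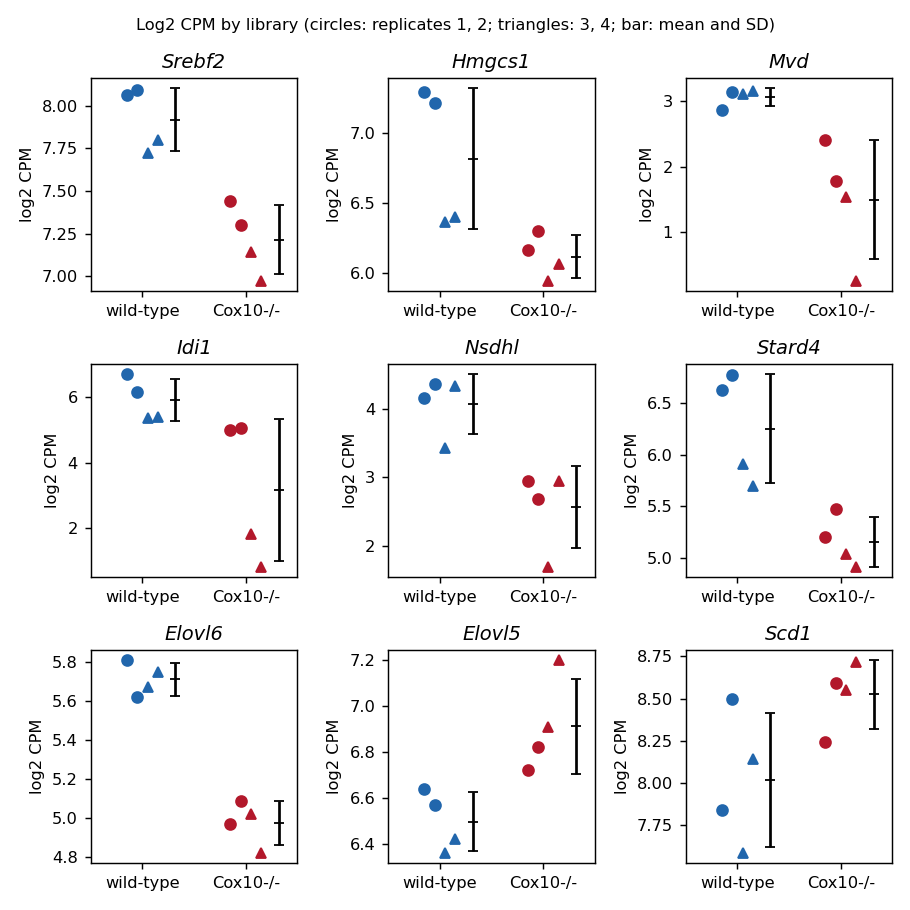
Log2 CPM of 9 of the genes in each library (wild-type left, Cox10-/- right), with circles for replicates 1 and 2 and triangles for replicates 3 and 4, and bars for the mean and SD of 4 libraries. The vertical axes are not shared and do not start at 0. Idi1 falls to 1.82 and 0.82 in Cox10-/- replicates 3 and 4, Srebf2, Stard4 and Elovl6 separate by genotype in every library, and Scd1 overlaps.

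From squalene to cholesterol, 5 of 11 genes fell. Lss, which folds oxidosqualene into lanosterol, had a log2 CPM of 5.18, 4.65, 4.38 and 5.15 in wild-type and of 4.00, 4.20, 4.14 and 3.24 in Cox10-/- libraries. The groups did not overlap, and Lss was at 51.9% of wild-type (log2 fold change -0.94 ± 0.25 SE, limma adjusted p = 0.0236). Next come the enzymes that remove the methyl groups of lanosterol. Cyp51, the 14-alpha demethylase, had 6.82, 6.42, 5.80 and 5.62 against 5.51, 5.40, 5.26 and 4.91. Its lowest wild-type value stood just above its highest Cox10-/- value, and the log2 fold change was -0.90 ± 0.23 SE (limma adjusted p = 0.0224). Msmo1, the sterol C4-methyl oxidase, had 6.35, 6.24, 4.96 and 5.23 against 4.72, 4.82, 4.39 and 4.73. Msmo1 likewise showed no overlap, and it fell by 1.03 (± 0.28 SE, limma adjusted p = 0.0253).

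Nsdhl, the dehydrogenase that acts after Msmo1 in removing the C4 methyl groups, had the smallest adjusted p among the 18 sterol enzymes. Its log2 CPM was 4.15, 4.36, 3.43 and 4.33 in wild-type and 2.94, 2.69, 1.69 and 2.94 in Cox10-/- libraries. Replicate 3 was the lowest in both genotypes, yet the groups did not overlap. Nsdhl fell by 1.50 (± 0.32 SE, limma adjusted p = 0.00827), to 35.3% of wild-type. Replicates 1 and 2 gave a difference of -1.44 and replicates 3 and 4 one of -1.57. Dhcr7, which reduces 7-dehydrocholesterol to cholesterol, had 4.06, 3.22, 4.23 and 4.04 against 2.85, 3.16, 2.76 and 3.05. The groups nearly met at wild-type replicate 2, and Dhcr7 fell by 0.93 (± 0.26 SE, limma adjusted p = 0.0273).

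The remaining 6 of the 11 genes did not pass the test. Sqle, the squalene epoxidase, had 5.99, 6.01, 5.55 and 5.48 in wild-type and 5.49, 5.69, 4.87 and 4.88 in Cox10-/- libraries, which overlapped across the pairs of replicates but not within them. Its log2 fold change was -0.53 ± 0.20 SE (limma adjusted p = 0.100). A model with the pair of replicates as a term gave a limma adjusted p of 0.00469. That term was chosen with the data known, and the labels do not say that the pairs match across genotypes. Sc5d, the sterol C5-desaturase, had -0.31 ± 0.15 SE, and Hsd17b7, the ketone reductase that completes C4 demethylation, had -0.29 ± 0.30 SE. Fdft1, the squalene synthase, and Ebp, the sterol isomerase, had 0.03 ± 0.17 SE and 0.16 ± 0.15 SE. Tm7sf2, a sterol C14-reductase, had -0.08 ± 0.34 SE. The 95% interval of Sqle ran from -0.97 to -0.08 and those of the other genes included 0, with widths that do not show them to be unchanged. Of the transcript words of Fdft1, 30.7% are shared with other genes, chiefly with the overlapping gene Ctsb on the other strand.

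**Figure D3:**
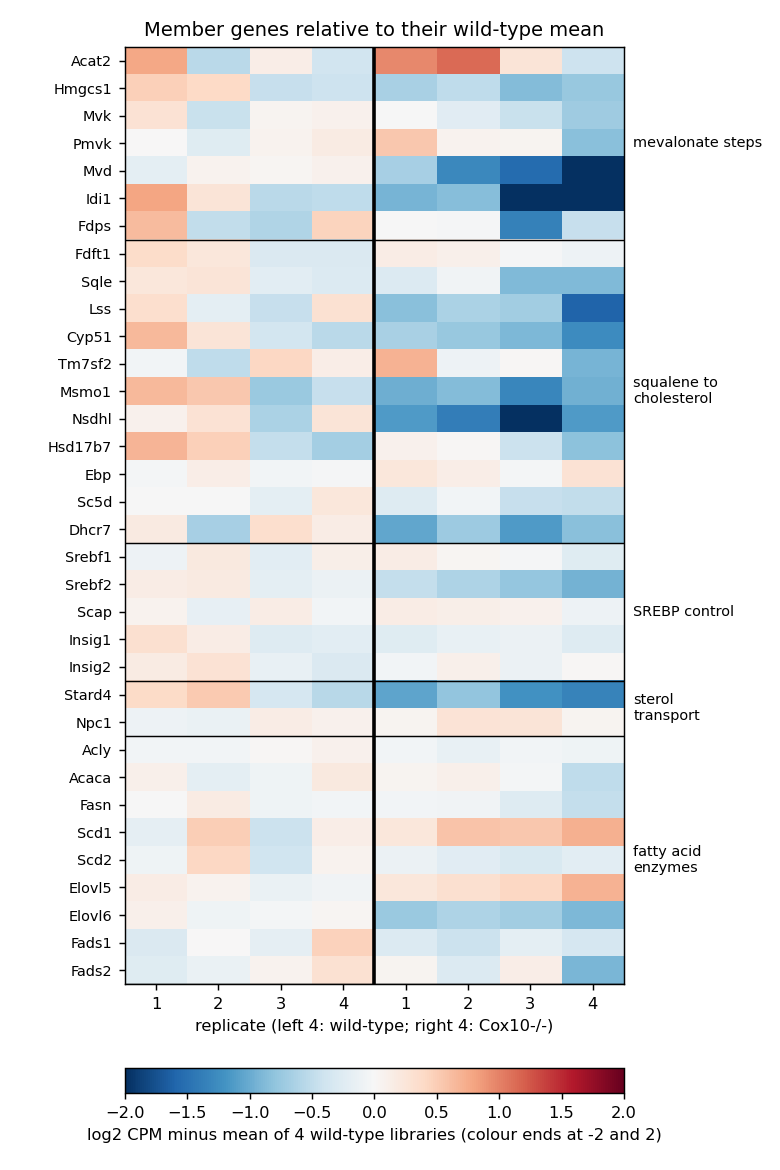
Log2 CPM of each of the 34 genes in each of the 8 libraries minus the gene's mean over the 4 wild-type libraries (colour; rows in pathway order, wild-type left and Cox10-/- right). The scale ends at -2 and 2, which Mvd and Idi1 in Cox10-/- libraries and Nsdhl in Cox10-/- replicate 3 reach. Blue runs through 8 sterol enzymes, Srebf2, Stard4 and Elovl6 on the Cox10-/- side, and no such block appears for most fatty acid enzymes.

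Of the SREBP regulators only Srebf2 passed the test. Srebf2 had a log2 CPM of 8.06, 8.09, 7.72 and 7.80 in wild-type and of 7.44, 7.30, 7.14 and 6.97 in Cox10-/- libraries. The groups did not overlap, and each genotype was lower in replicates 3 and 4 than in 1 and 2. Srebf2 fell by 0.70 (± 0.12 SE, limma adjusted p = 0.00213), to 61.3% of wild-type. Both pairs gave the same difference, -0.70. Srebf1 had 6.65, 6.94, 6.54 and 6.86 against 6.90, 6.78, 6.73 and 6.51, which overlapped throughout. Its log2 fold change was -0.02, with a 95% interval of -0.27 to 0.24 that excludes a fall as large as that of Srebf2 (limma adjusted p = 0.939). The difference between the responses of the 2 genes was not tested. Gene counts do not separate the SREBP1a and SREBP1c transcripts of Srebf1.

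Scap, the escort of the SREBPs, had a log2 fold change of 0.06 ± 0.11 SE. Insig1 and Insig2, which retain SCAP in the endoplasmic reticulum, had -0.19 ± 0.13 SE and -0.01 ± 0.13 SE. Insig1 is itself an SREBP target, and its 95% interval ran from -0.47 to 0.09. None of these 3 genes passed the test. Of the transport genes, Stard4, a soluble carrier of cholesterol between membranes, had 6.63, 6.77, 5.91 and 5.70 in wild-type and 5.20, 5.47, 5.04 and 4.91 in Cox10-/- libraries. The groups did not overlap, and Stard4 fell by 1.10 (± 0.22 SE, limma adjusted p = 0.00625), to 46.7% of wild-type. Npc1, which exports cholesterol from lysosomes, had 0.16 ± 0.10 SE and did not pass.

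Among the fatty acid enzymes 7 of 9 did not pass the test. Acly, which makes cytosolic acetyl-CoA from citrate, had a log2 fold change of -0.09 ± 0.08 SE, and Acaca, the acetyl-CoA carboxylase, had -0.10 ± 0.14 SE. Fasn, the fatty acid synthase, had a log2 CPM of 8.67, 8.84, 8.59 and 8.63 in wild-type and of 8.62, 8.61, 8.43 and 8.21 in Cox10-/- libraries. Cox10-/- replicates 1 and 2 lay above wild-type replicate 3, so the groups overlapped, and the log2 fold change was -0.22 with a 95% interval of -0.44 to 0.01 (limma adjusted p = 0.184). For Acaca, 52.6% of the transcript words also occur in the predicted gene Gm5182.

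Elovl6, which elongates palmitate to stearate, had 5.81, 5.62, 5.67 and 5.75 in wild-type and 4.97, 5.09, 5.02 and 4.82 in Cox10-/- libraries. The values of each genotype lay close together with a clear gap between the genotypes, and there was no shift between the pairs of replicates. Elovl6 fell by 0.74 (± 0.12 SE, limma adjusted p = 0.00123), to 60.0% of wild-type, the smallest adjusted p of the 34 genes. Elovl5, which elongates polyunsaturated fatty acids, moved the other way, from 6.64, 6.57, 6.36 and 6.42 to 6.72, 6.82, 6.91 and 7.20. Every Cox10-/- value was above every wild-type value, though the nearest lay close, and Elovl5 rose by 0.42 (± 0.12 SE, limma adjusted p = 0.0308), to 133% of wild-type.

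The desaturases did not pass. Scd1, the stearoyl-CoA desaturase that makes oleate, had 7.84, 8.50, 7.58 and 8.14 against 8.24, 8.59, 8.55 and 8.72. Wild-type replicate 2 lay within the Cox10-/- range, and the log2 fold change was 0.51 ± 0.17 SE (limma adjusted p = 0.0615). With the term for the pairs of replicates, which has the limits given for Sqle, the limma adjusted p of Scd1 was 0.0464. The sign of its difference was the same in both pairs. Its close relative Scd2 had -0.21 ± 0.14 SE. Fads1 and Fads2, the delta-5 and delta-6 desaturases of polyunsaturated fatty acids, had -0.31 ± 0.15 SE and -0.25 ± 0.22 SE.

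Per kilobase of the longest coding transcript, the level in wild-type cells was highest for Scd1 (53.5 CPM per kilobase), Srebf2 (47.6), Scd2 (44.4) and Fasn (40.9). Hmgcs1 and Elovl5, at 32.5 each, led the enzymes of sterol synthesis and of chain elongation. The lowest levels were those of Mvd (4.78), Acat2 (4.18) and Fdps (2.36). The falls were therefore seen both in well expressed genes such as Srebf2 and Hmgcs1 and in a gene as low as Mvd, whose wild-type libraries held 19 to 40 reads.

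The sterol enzymes also differed between the pairs of replicates of each genotype. In wild-type cells 12 of 18 were higher in replicates 1 and 2 than in 3 and 4, against 6914 of 17801 for all genes. Their median difference was 0.20 on the log2 scale, against -0.11 for all genes. Msmo1 differed most, by 1.20, followed by Hsd17b7 (1.16), Idi1 (1.04) and Cyp51 (0.91). In Cox10-/- cells all 18 were higher in replicates 1 and 2, with a median difference of 0.48, against 0.12 for all genes, of which 11344 of 17801 were higher. Markers of other cells shifted between the same pairs: 8 Schwann cell markers were all higher in replicates 1 and 2, by medians of 0.79 in wild-type and 0.87 in Cox10-/- cells, and 8 muscle fibre markers had medians of -1.08 and -1.05. The 10 stem cell markers had a median of 0.21 in wild-type, with 9 higher in replicates 1 and 2, and of 0.125 in Cox10-/- cells, with 5 higher. The medians of 10 endothelial markers were 0.14 and 0.06, and those of 8 fibro-adipogenic markers were -0.17 and -0.62. The part of any of these cells in the shift of the sterol enzymes was not tested. The fatty acid enzymes differed less, with medians of 0.01 in wild-type and 0.09 in Cox10-/- cells. Each library's median over the 18 sterol enzymes, relative to the wild-type mean of each gene, was 0.32, 0.10, -0.25 and 0.03 in wild-type and -0.26, -0.17, -0.79 and -0.84 in Cox10-/- replicates 1 to 4. Wild-type replicate 3 thus overlapped Cox10-/- replicates 1 and 2, while within each pair every Cox10-/- library was lower. The same median over all genes was 0.005, 0.02, -0.035 and -0.18 in Cox10-/- replicates 1 to 4. Depth also differed: Cox10-/- replicates 1 to 4 held 4313393, 4351344, 3109465 and 1693564 reads. Wild-type replicates 1 to 4 held 3546971, 2148064, 4647127 and 4026941. The part of depth in these shifts was not tested.

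**Figure D4:**
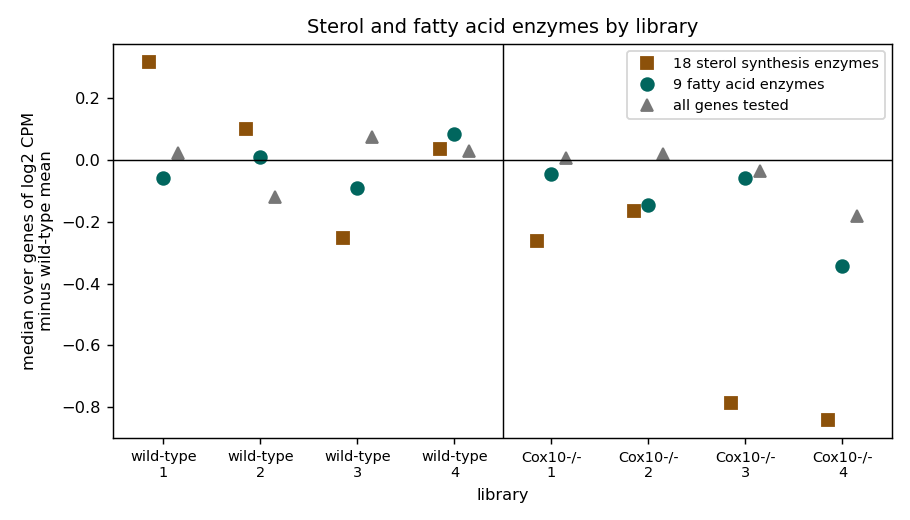
Median over the 18 sterol enzymes, the 9 fatty acid enzymes and all tested genes of the log2 CPM minus the wild-type mean of each gene, in each of the 8 libraries. The sterol median is lowest in Cox10-/- replicates 3 and 4 (-0.79 and -0.84), and the fatty acid median stays between -0.34 and 0.08.

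The genotype difference was read within each pair of replicates as well, first 1 and 2 and then 3 and 4. The median difference of the sterol enzymes was -0.47 in the first pair and -0.63 in the second, against 0.05 and -0.15 for all genes. Of the sterol enzymes 13 of 18 were below 0 in both pairs, against 6268 of 17801 for all genes. For the fatty acid enzymes the medians were -0.05 and -0.29. All 12 genes that passed had the same sign in both pairs, which had to be so because their genotypes did not overlap. Hmgcs1 (-1.02 and -0.38), Msmo1 (-1.53 and -0.54) and Cyp51 (-1.17 and -0.63) differed more in replicates 1 and 2, where their wild-type levels were higher. Mvd, with -0.91 and -2.25, and Idi1 differed more in replicates 3 and 4, where Mvd had 9 and 2 reads in Cox10-/- libraries. Of these 5 genes only Idi1 passed the test of the interaction. The limma adjusted p for the interaction was 0.122 for Hmgcs1, 0.121 for Msmo1, 0.261 for Cyp51 and 0.304 for Mvd.

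**Figure D5:**
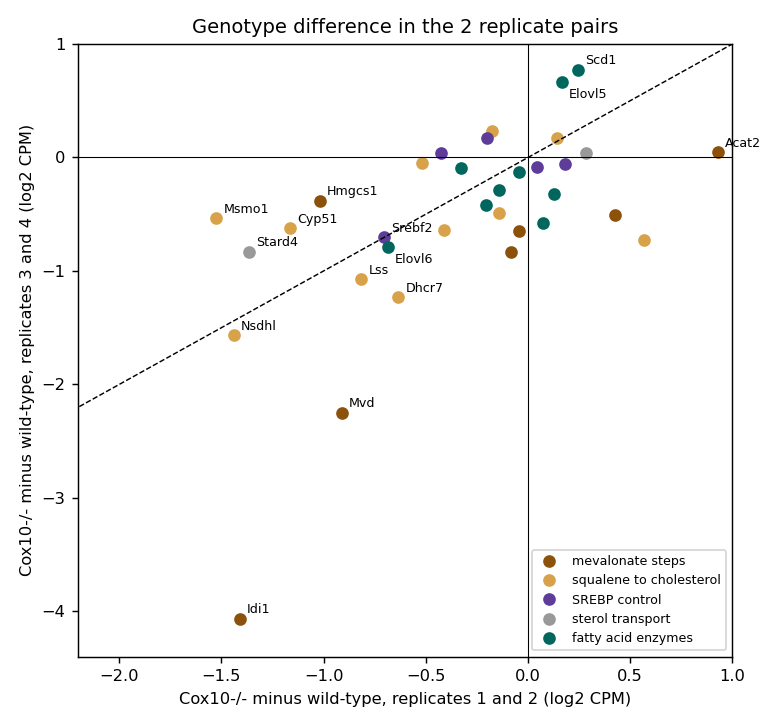
Genotype difference of each of the 34 genes (Cox10-/- minus wild-type, log2 CPM) in replicates 3 and 4 (vertical) against replicates 1 and 2 (horizontal), with the line of equal difference dashed. Srebf2, Nsdhl and Elovl6 lie near the line, Idi1 (-1.41 and -4.07) lies far below it, and Hmgcs1, Msmo1 and Cyp51 lie above it.

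Several calls were lost when 1 library was left out. The count of 8 sterol enzymes that fell was 2 without wild-type replicate 1, 4 without wild-type replicate 2, 5 without wild-type replicate 4, 3 without Cox10-/- replicate 3 and 5 without Cox10-/- replicate 4. It was 6 without wild-type replicate 3 or Cox10-/- replicate 1, and 9 without Cox10-/- replicate 2. Idi1 missed the threshold without any one of the wild-type libraries and without Cox10-/- replicate 3 or 4. Hmgcs1 missed it without wild-type replicates 1 or 2 or Cox10-/- replicates 1, 3 or 4, and Dhcr7 without wild-type replicates 1, 3 or 4 or Cox10-/- replicates 1 or 3. Cyp51 missed it without wild-type replicates 1 or 2 or Cox10-/- replicates 3 or 4, Msmo1 without wild-type replicates 1 or 2 or Cox10-/- replicate 3, and Lss without wild-type replicates 1 or 4. Elovl5 missed it without wild-type replicates 3 or 4 or Cox10-/- replicates 3 or 4. In these fits the limma adjusted p of the calls that were lost ran from 0.0509 to 0.107. Srebf2, Stard4, Nsdhl, Mvd and Elovl6 passed in all 8 fits that left out 1 library, with a highest adjusted p of 0.0104, 0.0245, 0.0288, 0.0487 and 0.00738. When replicates 1 and 2, and 3 and 4, were averaged into 2 samples per genotype, Nsdhl, Srebf2 and Stard4 passed (limma adjusted p of 0.0344, 0.0388 and 0.0385) and 9 of the 12 calls did not.

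Other genes of the pathways came from lists of neighbouring functions. Of 8 further sterol genes, 1 fell and none rose, by limma and by voom, with 2 lower and 1 higher at an unadjusted p under 0.05. Of 24 further fatty acid genes 5 fell and 2 rose. Over all genes 8.51% fell and 7.58% rose, so the count of the further sterol genes and the 2 rises are near the background. Thrsp, a lipogenic SREBP and thyroid hormone target, fell by 1.25 (± 0.17 SE, limma adjusted p = 0.000527), from 4.45 to 4.71 in wild-type to 3.17 to 3.49 in Cox10-/- libraries. Hsd17b12, the ketoacyl-CoA reductase of the elongation cycle, fell by 0.65 (± 0.13 SE, limma adjusted p = 0.00629). Gpam, which starts glycerolipid synthesis, fell by 0.47 (± 0.11 SE, limma adjusted p = 0.0132). Lpin1, a phosphatidate phosphatase that also acts as a nuclear cofactor, rose by 1.19 (± 0.11 SE, limma adjusted p = 4e-05). The other genes of this list that passed were named after their values were seen. Mid1ip1, a relative of Thrsp that promotes assembly of acetyl-CoA carboxylase, had 5.30 to 5.49 in wild-type and 5.68 to 6.25 in Cox10-/- libraries, and rose by 0.58 (± 0.14 SE, limma adjusted p = 0.0149). Tecr, the enoyl-CoA reductase of the elongation cycle, fell by 0.64 (± 0.16 SE, limma adjusted p = 0.0205), and Hacd3, a dehydratase of that cycle, fell by 0.38 (± 0.12 SE, limma adjusted p = 0.0471). Of 8 fits that left out 1 library Tecr missed the threshold in 2 and Hacd3 in 7. Other genes of the cycle did not pass, among them Hacd1 (-0.59 ± 0.24 SE), Hacd2 (0.27 ± 0.15 SE), Elovl4 (-0.68 ± 0.24 SE) and Elovl1 (0.12 ± 0.14 SE).

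A further list held 18 genes of sterol efflux, storage, lipoprotein receptors and the liver X receptor (LXR) response. Of these 7 rose, Vldlr among them, and 1 fell, against 7.58% and 8.51% of all genes. Their median log2 fold change was 0.41 against -0.06 for all genes, and 4 of the 7 passed in all 8 fits that left out 1 library. Abca1, the cholesterol exporter and LXR target, had 7.73 to 8.39 in wild-type and 9.12 to 9.40 in Cox10-/- libraries. These groups were well separated, and Abca1 rose by 1.15 (± 0.13 SE, limma adjusted p = 0.000134). Cyp27a1, the mitochondrial sterol 27-hydroxylase, rose by 1.69 (± 0.15 SE, limma adjusted p = 2.8e-05), and Stard5, a soluble sterol carrier related to Stard4, rose by 1.02 (± 0.16 SE, limma adjusted p = 0.00119). Soat1, which esterifies cholesterol for storage, was the gene of this list that fell, by 0.64 (± 0.10 SE, limma adjusted p = 0.00139). Stard4 and Stard5, both of the StAR-related family, moved in opposite directions. Of the exonic length of Stard5 in GENCODE M21, 23.9% overlaps other genes, Gm45838 on the same strand and Il16 on the other. The part of these genes in the count of Stard5 was not tested. Of 12 genes that use or pass on farnesyl diphosphate, Cox10 among them, none passed by limma or by voom, and at an unadjusted p under 0.05 there were 2 lower and none higher. The smallest adjusted p of these was that of Icmt, the methyltransferase of prenylated proteins (-0.43 ± 0.14 SE, limma adjusted p = 0.0552).

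Markers of cell types moved with genotype too. The summed CPM of 10 stem cell markers was 2449 to 3121 in wild-type and 1638 to 1813 in Cox10-/- libraries, and 6 of the 10 fell. The sum of 10 endothelial markers was 266 to 313 and 358 to 436, with 5 that rose, and that of 7 mural cell markers was 619 to 868 and 1004 to 1228, with 2 that rose and 2 that fell. The sum of 8 fibro-adipogenic markers was 4133 to 5664 and 4215 to 8628, that of 8 Schwann cell markers 402 to 761 and 492 to 821, and that of 8 muscle fibre markers 93.7 to 233 and 128 to 342. In each of these last 3 lists 1 or 2 genes rose, and in the first of them 1 also fell. Over all genes 8.51% fell and 7.58% rose. The counts for the stem cell and endothelial markers stand above those shares, and 1 gene of 8 is near them. For 2 adipocyte markers of 8, Fabp4 and Pparg, the sum was 2.73 to 18.6 and 13.3 to 26.5. The sum for 3 immune markers of 8 was 10.7 to 24.9 and 22.4 to 35.9. The symbols of the others in both lists were not found among the genes measured here, so these sums leave them out. The part of these cells in the levels of the sterol and fatty acid genes was not tested.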

How the data were processed

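The authors deposited log2 CPM per gene symbol and sample in 1 table. The submitters' processing notes name mm9 as the build and DESeq2, featureCounts, HISAT2 and Trim Galore as tools. Their versions and their handling of strand and of reads with several matches were not in these notes. Rows with no gene (1054) and the authors' mean column were left out. Each column summed to between 994342 and 995129 CPM. Steps of the low values gave whole reads within 0.1 of a read for 100% of values up to 20 reads, hence the depths.

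Genotypes were compared on the deposited values with limma 3.58.1 (R 4.3.3), using no pseudocount, a variance trend and Benjamini-Hochberg adjustment at 0.05. A value above 0 in at least 4 of the 8 libraries was required, which left 17801 genes, all 34 members among them, and removed 46. SE is the standard error of the fit. The functions were tested on simulated data. Other settings were another filter or none, log2(CPM + 1), median centring, quantile normalization, no variance trend, voom on recovered reads, a replicate block, the pair of replicates as a term, means of the pairs, and leaving out libraries.

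Same-numbered libraries were not shown to be paired: correlations of their deviations were 0.0453, 0.137, 0.11 and 0.13. The members, gene lists and settings were chosen with earlier results of these data known. The rule for named genes was all measured members and up to 4 genes of smallest p from each other list. Further genes of the fatty acid list (Mid1ip1, Tecr, Hacd3, Hacd1, Hacd2, Elovl1 and Elovl4) were added with their values known, and not every gene of the rule is described. Values of 4 further genes of sterol synthesis and uptake are not reported here. Transcript lengths and shared 50-base words come from GENCODE M21, and promoters from RefSeq, both on GRCm38 and not on the build of the files, so only the promoters carry coordinates.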

Additional observations from a re-analysis of the deposited data

Results flagged for a closer look

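Idi1 stood out because its genotype difference was not the same in the pairs of replicates. Replicates 1 and 2 gave a log2 difference between Cox10-/- and wild-type of -1.41, replicates 3 and 4 gave -4.07, and the change from one to the other was -2.655 (limma adjusted p = 0.0424 for the interaction, tested after the data were seen). Cox10-/- replicates 3 and 4 held 11 and 3 reads of Idi1, against 192 and 170 in wild-type replicates 3 and 4. Of the transcript words of Idi1, 30.5% also occur in other genes. Dixon's test, which sets the gap beside an extreme value against the range of its group, was also applied. It flagged no library in the 68 groups of 4 libraries, 2 for each of the 34 genes. With 4 values the gap had to be most of the range, so libraries well away from the others could go unflagged. Examples are Nsdhl in Cox10-/- replicate 3 (1.69, others 2.69 to 2.94) and Dhcr7 in wild-type replicate 2 (3.22, others 4.04 to 4.23).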

How the results depend on the processing

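None of the 12 called genes changed sign under any of the 19 other settings. Their genotypes did not overlap, so leaving out or averaging libraries could not have changed a sign. Of 646 values of the 34 genes, 550 kept their sign and their side of the threshold, 56 lost a call, 9 gained one and 31, all of genes that had not passed, changed sign. The 8 sterol enzyme calls were 3 with no variance trend, 4 by voom, 4 without the shallowest library of each genotype, 1 with means of the pairs, and 2 to 9 when 1 library was left out. The 2 fatty acid calls were 1 with median centring, 1 with no variance trend, 0 with means of the pairs and 1 to 3 when 1 library was left out. With means of the pairs 858 of all genes were called in place of 2863 and 6 of the other pathway genes in place of 16, and leaving out 1 library gave 1840 to 2907 of all genes. The median of the fatty acid enzymes was -0.07 without the shallowest libraries and -0.2433 to -0.0842 when 1 library was left out. With the replicate block all 12 calls remained and Sqle and Scd1 were added, 14 in all (adjusted p of 0.0138 and 0.0151). This block says little, since wild-type replicate 1 correlated best with Cox10-/- replicate 2 and the numbers may pair nothing. Median centring moved the median of all genes from -0.055 to 0.0275 and the share of higher genes among calls from 47.1% to 58.4%, and Hmgcs1, Msmo1 and Elovl5 then missed the threshold. With quantile normalization 12 calls remained and Scd1 was added.

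The changes of sign were in genes with a log2 fold change between -0.10 and 0.03, and in Hsd17b7 (-0.29), and their cause was not tested. With median centring the log2 fold change was 0.04 for Pmvk, 0.0025 for Tm7sf2, 0.065 for Srebf1 and 0.07 for Insig2. Quantile normalization gave 0.0319 for Pmvk, 0.0095 for Srebf1 and 0.0167 for Insig2, and voom gave 0.0498 for Pmvk, 0.0176 for Tm7sf2, 0.0235 for Srebf1 and 0.0137 for Insig2. Without the shallowest libraries the values were 0.1433 for Pmvk, 0.0367 for Tm7sf2, 0.0567 for Hsd17b7, 0.12 for Srebf1 and 0.0733 for Insig2. Leaving out 1 library gave -0.2358 to 0.2242 for Pmvk, -0.0683 to 0.1517 for Fdft1, -0.3358 to 0.2042 for Tm7sf2, -0.0867 to 0.0558 for Srebf1, -0.11 to 0.0833 for Insig2 and -0.1658 to 0.0375 for Acaca.

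Depth limits the low genes most: Mvd rests on 2 to 40 reads per library, and Fdps is uncertain because most of its sequence is shared.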
